A study of Homo sapiens with 7 samples.

Results

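The urokinase and plasminogen activator system was examined in NCI-H520 cells, a long-established human cell line of lung squamous carcinoma origin, after silencing of single deadenylases, the enzymes that shorten mRNA poly(A) tails. The members were PLAU (urokinase), PLAUR (the urokinase receptor), PLAT (tissue plasminogen activator), SERPINE2 (protease nexin 1) and SERPINB2 (plasminogen activator inhibitor 2). They were chosen by name, and every gene probe whose accession maps to one of these symbols was used. This gave 6 probes of 5 genes, out of 24827 named probes covering 19063 symbols and 42405 gene probes in all. Of the 5 genes, 3 were well above background on all arrays (PLAU, PLAUR and SERPINE2) and 2 on none (PLAT and SERPINB2).

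There were 7 single-colour arrays, with 1 array in each group. The control groups were cells given empty vector and cells given a non-target shRNA, and the silenced groups received an shRNA against PARN, CNOT6, CNOT6L, CNOT7 or NOC (nocturnin, gene symbol NOCT). All 7 groups were transiently transfected with 6 µg of pLKO.1 plasmid DNA, put under puromycin at 6 µg/mL from 12 h, and harvested at 72 h. In the labels the CNOT6L and NOC shRNAs carry 1 and the same accession, which is NOC's, and what the CNOT6L shRNA targets is therefore uncertain. As each group had a single array, no difference for 1 shRNA could be checked in replicates, and precision is limited by the number of arrays.

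Urokinase is a secreted serine protease that cuts plasminogen into plasmin, a broad protease that dissolves fibrin and degrades extracellular matrix. Its receptor is tethered to the cell surface by a lipid anchor and holds urokinase there, while tissue plasminogen activator acts mainly on fibrin. Protease nexin 1 and plasminogen activator inhibitor 2 are serpins that trap these activators, and the system is known in carcinomas for its part in invasion. Urokinase mRNA is short-lived, carries an AU-rich element and is a reported substrate of PARN, so its level after PARN silencing was the first question.

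The RefSeq promoter table of build GRCh38.p14 lists 2 start sites for PLAU and 1 for PLAUR. They are shown because the PLAU probes, which carry the main difference among the arrays, are annotated to different PLAU transcripts. Which start site either probe reads is not known here. Receptor and ligand can also be compared by their upstream sequence. Each run below is the 250 bases before a start, 5′ to 3′ along the gene. Capitals mark GC boxes (GGGCGG) and AP-1 sites (TGANTCA), searched on both strands.
PLAU, chr10:73910360-73910609, plus strand: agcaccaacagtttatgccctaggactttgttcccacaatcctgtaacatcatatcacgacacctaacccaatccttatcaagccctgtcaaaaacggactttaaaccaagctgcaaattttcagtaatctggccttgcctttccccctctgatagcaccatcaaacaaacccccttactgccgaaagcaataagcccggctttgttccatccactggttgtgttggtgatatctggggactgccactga
PLAU, chr10:73910882-73911131, plus strand: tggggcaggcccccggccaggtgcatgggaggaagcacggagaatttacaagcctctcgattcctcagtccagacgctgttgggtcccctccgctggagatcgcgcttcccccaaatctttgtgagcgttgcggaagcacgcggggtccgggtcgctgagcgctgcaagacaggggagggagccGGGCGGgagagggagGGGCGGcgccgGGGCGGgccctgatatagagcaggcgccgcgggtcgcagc
PLAUR, chr19:43670170-43670419, minus strand: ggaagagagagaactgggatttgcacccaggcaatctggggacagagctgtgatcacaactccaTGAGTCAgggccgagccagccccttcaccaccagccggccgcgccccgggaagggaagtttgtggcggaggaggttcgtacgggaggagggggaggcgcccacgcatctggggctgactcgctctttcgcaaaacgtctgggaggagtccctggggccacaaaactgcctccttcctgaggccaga

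The second PLAU window held 3 GC boxes, which begin 66, 51 and 40 bases before the start and do not overlap. The first PLAU window held none and was 46.8% G and C, against 68.8% in the second. The PLAUR window held 1 AP-1 site, 186 bases before the start, and neither PLAU window held one. Over all 35116 windows of this length, 42.6% held a GC box and 6.57% an AP-1 site. These matches describe the letters in the windows and are not measured binding.

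PLAU was the member that differed most among the arrays, and it lay at 2 separate levels. It was high on the empty-vector, PARN shRNA and CNOT6 shRNA arrays and low on the non-target, CNOT6L shRNA, CNOT7 shRNA and NOC shRNA arrays. PLAUR and SERPINE2 differed far less, and no member differed 2-fold from both control arrays on any shRNA array. A level here is log2 of the processed signal minus log2 of the array's 75th percentile signal, so 0 is that percentile, and a log2 difference of 1 is 2-fold.

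The main PLAU probe, A_23_P24104 (NM_002658), was printed on 10 spots per array, of which 7 to 10 were used after outlier spots were left out. Its level was -1.66 with empty vector, -3.23 with the non-target shRNA, -1.64 after PARN, -1.64 after CNOT6, -2.88 after CNOT6L, -2.86 after CNOT7 and -2.86 after NOC silencing. The SD between spots on 1 array was 0.03 to 0.09 log2. The 3 high arrays lay within 0.03 log2 of each other, and their lowest spot was at -1.71. The highest spot on the other 4 arrays was at -2.80, so spots of the high and low arrays did not overlap. From the lowest to the highest array the range was 1.60 log2, or 3.02-fold.

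The other PLAU probe, A_33_P3306146 (NM_001145031), was printed on 1 spot and was much dimmer, with processed signals of 17.6 to 64.3. It was at -5.66 with empty vector, -7.04 with the non-target shRNA, -5.39 after PARN, -5.85 after CNOT6, -7.21 after CNOT6L, -6.91 after CNOT7 and -6.78 after NOC silencing. The same 3 arrays were high and the same 4 low, with a range of 1.81 log2, or 3.51-fold. Over the 7 arrays the levels of the 2 PLAU probes had a Pearson r of 0.960, as a description of points that share their arrays and their scaling. Among the 4 low arrays the order differed between the probes, the non-target array being lowest for the main probe and the CNOT6L shRNA array for the dim one.

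**Figure D1:**
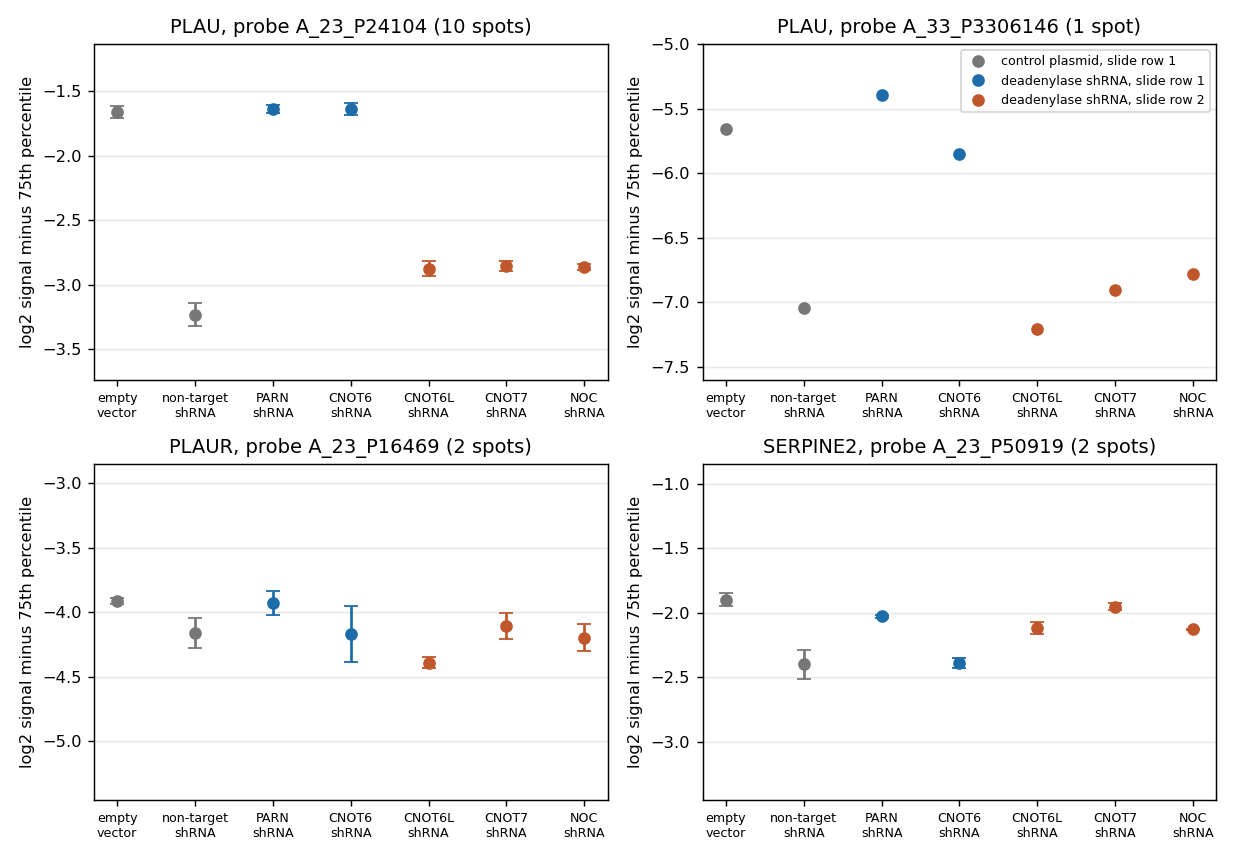
Levels of the 4 member probes above background, each panel with the 7 arrays on the x axis and log2 signal minus the array's 75th percentile on the y axis; every panel spans 2.6 log2 units, and error bars are the SD between spots of 1 array (none for the probe with 1 spot). Both PLAU probes were high on the empty-vector, PARN shRNA and CNOT6 shRNA arrays, while PLAUR and SERPINE2 ranged over 0.48 and 0.50 log2.

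The receptor PLAUR was measured by probe A_23_P16469 (NM_001005377) on 2 spots. Its level was -3.91 with empty vector, -4.16 with the non-target shRNA, -3.93 after PARN, -4.17 after CNOT6, -4.39 after CNOT6L, -4.11 after CNOT7 and -4.20 after NOC silencing. The range was 0.48 log2, or 1.39-fold, and the SD between spots reached 0.22 log2 on the CNOT6 shRNA array. The empty-vector and PARN shRNA arrays were highest and the CNOT6L shRNA array was lowest. The 4 arrays between them lay within 0.09 log2 of each other, less than the larger spot SDs, and had no order.

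SERPINE2, which encodes an inhibitor of urokinase, thrombin and plasmin, was measured by probe A_23_P50919 (NM_006216) on 2 spots. Its level was -1.90 with empty vector, -2.40 with the non-target shRNA, -2.03 after PARN, -2.39 after CNOT6, -2.12 after CNOT6L, -1.95 after CNOT7 and -2.13 after NOC silencing. The range was 0.50 log2, or 1.42-fold. The non-target and CNOT6 shRNA arrays were the low pair, which are arrays on which PLAU was at opposite ends. The correlation of levels over the 7 arrays was 0.219 between the main PLAU probe and SERPINE2, 0.640 between it and PLAUR, and 0.463 between PLAUR and SERPINE2.

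PLAT and SERPINB2 had no measured level in these cells at the sensitivity of the array. The PLAT probe A_23_P82868 (NM_000930) had 10 spots per array and none was well above background on any array, with mean processed signals of 3.27 to 9.31. The SERPINB2 probe A_24_P245379 (NM_002575) had 2 spots, none well above background, and signals of 2.09 to 4.98. The lowest signal among probes well above background was 4.74 to 7.53 over the 7 arrays. No fold change is given for these 2 genes.

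Each shRNA array was then set against both control arrays. PLAU after PARN silencing was level with the empty-vector array and about 3-fold above the non-target array, and the same held for CNOT6 shRNA. For CNOT6L, CNOT7 and NOC shRNA it was the reverse, with PLAU near the non-target array and below the empty-vector array. The answer for urokinase therefore depended on which control was used.

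For PARN shRNA the main PLAU probe differed by 0.03 log2 from the empty-vector array and by 1.60 log2 from the non-target array, and for CNOT6 shRNA by 0.03 and 1.59 log2. For CNOT6L shRNA the differences were -1.21 and 0.36 log2, for CNOT7 shRNA -1.20 and 0.37 log2, and for NOC shRNA -1.20 and 0.37 log2. The last 3 arrays were thus alike to within 0.02 log2. The dim PLAU probe gave 0.27 and 1.65 log2 for PARN shRNA and -0.19 and 1.19 log2 for CNOT6 shRNA. It gave -1.54 and -0.16 log2 for CNOT6L shRNA, -1.25 and 0.13 log2 for CNOT7 shRNA, and -1.12 and 0.26 log2 for NOC shRNA.

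The control arrays themselves differed in PLAU by 1.57 log2 with the main probe and 1.38 log2 with the dim one, both higher on the empty-vector array. Of the 4 member probes tested, these 2 were at least 2-fold apart between the controls, beside 18.1% of all 38843 probes tested. Of those 7046 probes, 6767 were higher on the empty-vector array and 279 lower, so the direction was not particular to PLAU. PLAUR was 0.25 log2 and SERPINE2 0.50 log2 higher on the empty-vector array. The median of all probes was itself 0.20 log2 higher on the empty-vector array, so PLAU exceeded that shift and PLAUR hardly did. This median was -0.05 log2 under quantile normalization, -0.04 log2 under normexp background correction and 0.69 log2 without scaling. Neither control carries a deadenylase shRNA, and with 1 array each a difference between plasmids and a difference between arrays cannot be told apart.

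A call required a difference of 2-fold or more, in 1 direction, from each of the controls. By this rule 0 of 4 member probes tested were called for any shRNA. The share of all probes called was 0.803% after PARN, 0.7% after CNOT6, 1.09% after CNOT6L, 1.46% after CNOT7 and 1.91% after NOC silencing, and 0 of 4 does not stand apart from shares of this size. For PLAUR the largest difference from a control was -0.48 log2, for CNOT6L shRNA against the empty-vector array. For SERPINE2 it was -0.49 log2, for CNOT6 shRNA against the same control.

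**Figure D2:**
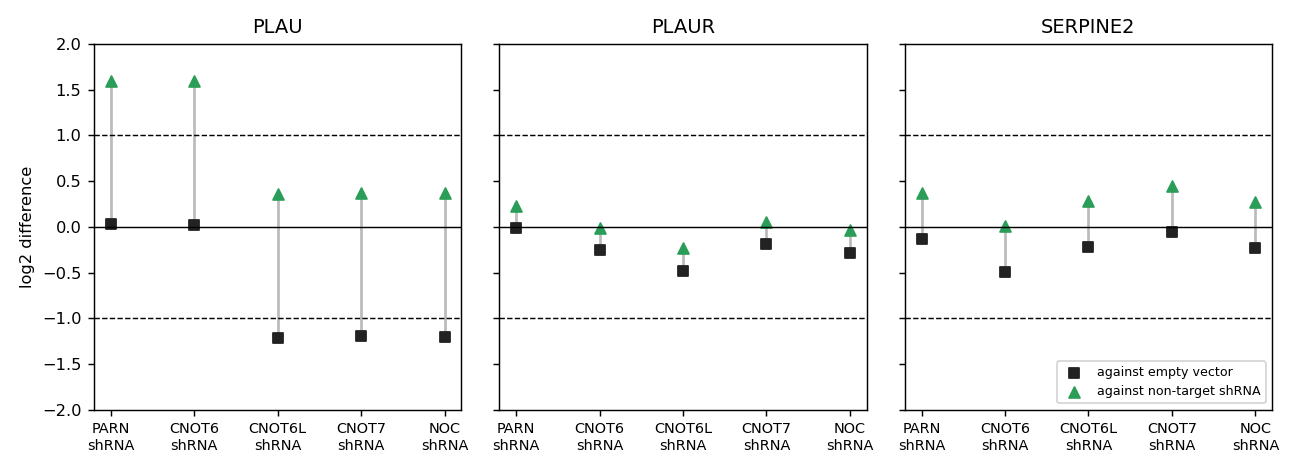
Log2 difference of each shRNA array from the empty-vector array (squares) and from the non-target array (triangles) for the main PLAU probe, PLAUR and SERPINE2; dashed lines mark 2-fold. For PLAU 1 of the 2 controls gave a difference beyond 2-fold on every shRNA array, and the other gave 0.03 to 0.37 log2.

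The targeted mRNAs were read on the same arrays. Against the mean of the controls, PARN mRNA fell by 1.13 log2 with its shRNA, and this passed 2-fold against both controls. The other targeted mRNAs did not pass, with changes of -0.88 log2 for CNOT7, -0.67 log2 for CNOT6L, -0.43 log2 for NOCT and -0.16 log2 for CNOT6, each with its own shRNA. From the non-target array alone, NOCT differed by -0.22 log2 and CNOT6 by -0.11 log2. The controls were 0.41 log2 apart in NOCT, which was also at -0.36 log2 with CNOT7 shRNA and at -0.14 log2 with CNOT6L shRNA. CNOT6L mRNA was at -0.14 log2 with NOC shRNA. Lowering of NOCT and CNOT6 mRNA was thus not clearly shown, and "silencing" in this text names the shRNA given.

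The 7 arrays lay on 1 slide, and slide position was considered beside the PLAU levels. The CNOT6L, CNOT7 and NOC shRNA arrays were in slide row 2, which held no control, and the other 4 arrays in row 1. All 3 arrays of row 2 had low PLAU, and so did the non-target array of row 1. The lowest array was the non-target array for the main probe and the CNOT6L shRNA array for the dim one. Within row 1 PLAU was 3-fold apart among arrays, and within row 2 the main probe ranged over 0.02 log2. In row 2 the dim PLAU probe ranged over 0.42 log2, PLAUR over 0.29 log2 and SERPINE2 over 0.17 log2. Against both other arrays of its row, 0 of 4 member probes were called for CNOT6L, CNOT7 or NOC shRNA, beside 1.29%, 0.343% and 0.492% of all probes. The image of the NOC shRNA array was extracted on another day, and its main PLAU level was within 0.02 log2 of its row neighbours. The part of slide row in the PLAU levels of these 3 arrays was not tested, since their shRNAs and their row cannot be told apart.

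As the comparison with more than 1 array on each side, the 5 shRNA arrays were tested together against the 2 controls. Its error reflects how unlike shRNAs, and unlike control plasmids, differ from one another. With limma and Benjamini-Hochberg adjustment over 38004 probes, the main PLAU probe differed by 0.07 log2 (SE 0.49, adjusted p = 1) and the dim one by -0.08 log2 (SE 0.57, adjusted p = 1). PLAUR differed by -0.12 log2 (SE 0.21) and SERPINE2 by 0.03 log2 (SE 0.19), also with an adjusted p of 1 by limma. Limma called 0 probes over the whole array, a share of 0%, with 1420 at an unadjusted p under 0.05 and a smallest adjusted p of 0.473. Leaving out the empty-vector array gave 58 called probes and leaving out the non-target array gave 1, with 0 member probes in either case. With slide row as a term the limma estimate for the main PLAU probe was 0.81 log2 (SE 0.41, unadjusted p = 0.0814, adjusted p = 0.925), and for the dim one 0.73 log2 (SE 0.50, adjusted p = 0.925). That estimate rests on row 1 alone, where 1 control was high and the other low.

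Because overall brightness differed among the arrays, the PLAU difference was also taken relative to another member on the same array. The 75th percentile signal was lowest with CNOT6 shRNA (1366) and highest with CNOT7 shRNA (3986), and 82% to 91.4% of gene probes were above background. The controls were the ends of that range, with 82% on the non-target array and 91.4% on the empty-vector array. Taken as the change from the non-target array minus the change of SERPINE2, which needs no scaling, the main PLAU probe was 1.07 log2 higher on the empty-vector array, 1.22 log2 for PARN shRNA and 1.59 log2 for CNOT6 shRNA. It was 0.07 log2 for CNOT6L shRNA, -0.07 log2 for CNOT7 shRNA and 0.10 log2 for NOC shRNA. The ratio of PLAU to SERPINE2 signal thus showed the same 3 arrays apart from the other 4.

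The 3 high and 4 low arrays stayed apart for the main probe under quantile normalization and normexp, but not without scaling. Without scaling, PLAU on the CNOT6 shRNA array, the dimmest of the 7, was 0.83 log2 above the non-target array, level with NOC shRNA at 0.83 log2 and below CNOT7 shRNA at 1.16 log2. For the dim PLAU probe, the excess of the empty-vector array over the non-target array shrank from 1.38 log2 to 0.53 log2 under quantile normalization and 0.18 log2 under normexp. Without scaling it was 1.87 log2. The 2-fold difference between the controls thus held under these settings for the main probe and under some of them for the dim one.

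**Figure D3:**
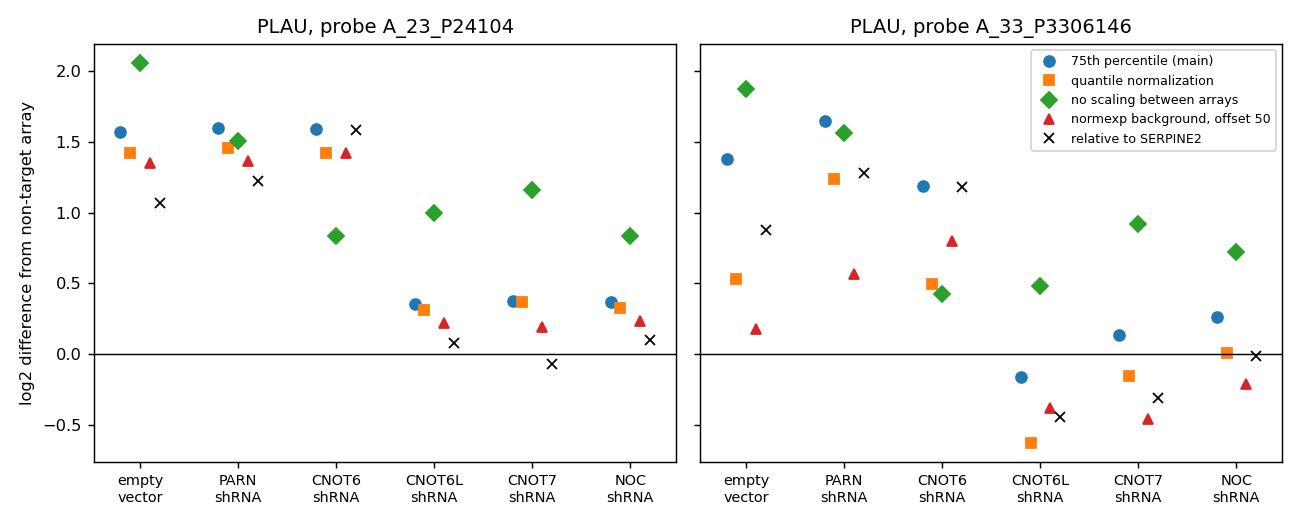
Log2 difference of PLAU from the non-target array on the other 6 arrays, for both probes, under 4 ways of scaling and relative to the change of SERPINE2. For the main probe the 3 left-hand arrays stood at 1.07 to 1.60 log2 and the 3 right-hand arrays at -0.07 to 0.37 log2 with each scaling and relative to SERPINE2; without scaling (diamonds) this separation was lost.

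Over the 21 pairs of arrays, the main PLAU probe was at least 2-fold apart in 12 and the dim one in 11. In these 12 pairs 5.7% to 18.1% of all probes were 2-fold apart, and in the other 9 pairs 1.37% to 9.68%. PLAUR and SERPINE2 were under 2-fold in all 21 pairs. Pairs share arrays and are not independent.

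The pattern of PLAU over the arrays was shared by many other genes. Among 3242 named genes above background on all arrays and with a range of at least 1 log2, the most similar by Pearson r over the 7 arrays were CDK6, a cyclin D-dependent kinase (r = 0.998), HPR, haptoglobin-related protein (r = 0.998), and PKD1L1, a polycystin family protein (r = 0.997). In all, 179 of these genes had an r over 0.95 with PLAU. CDK6 stood at 2.27, 1.29, 2.30, 2.32, 1.57, 1.60 and 1.55 on the empty-vector, non-target, PARN, CNOT6, CNOT6L, CNOT7 and NOC arrays, in that order. It thus had the 3 high and 4 low arrays of PLAU over a smaller range. These values describe 7 points that share their arrays, and nothing on common control follows from them.

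The other measured members had fewer such neighbours. PLAUR was most similar to RUNX1-IT1 (r = 0.980), FAT1 (r = 0.952) and NLRC3 (r = 0.947), with 2 genes over 0.95. SERPINE2 was most similar to CDKN2B-AS1 (r = 0.905), C16orf46 (r = 0.898) and NEU4 (r = 0.890), with 0 genes over 0.95. RUNX1-IT1 and CDKN2B-AS1 are non-coding RNAs, and FAT1 is a large cadherin.

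**Figure D4:**
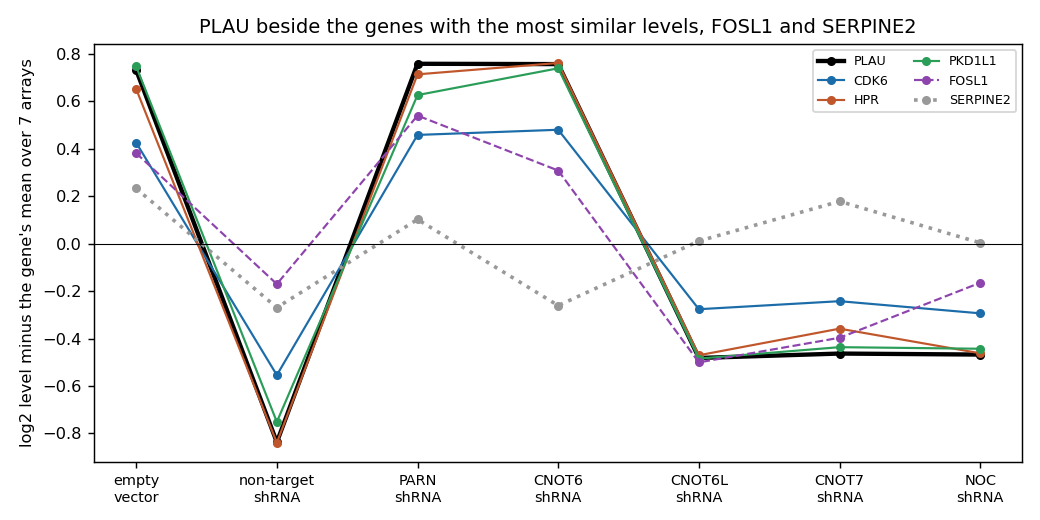
Level of each gene minus its own mean over the 7 arrays (y axis, log2) by array (x axis), for PLAU, the 3 genes with the most similar levels, FOSL1 and SERPINE2; lines join the points of 1 gene. CDK6, HPR and PKD1L1 were above their mean on the same 3 arrays as PLAU, with r of 0.997 to 0.998, and SERPINE2 was not.

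The wider plasminogen system was counted from a list of 66 genes with a probe on the array, of which 57 were tested, 49 were above background on all arrays and 9 on none. None of the 57 was called for PARN, CNOT6 or CNOT6L shRNA, and 1 of 57 (1.75%) was lower for CNOT7 shRNA and 1 for NOC shRNA, near the 1.46% and 1.91% of all probes called there. In both cases it was MMP1, interstitial collagenase, a protease that plasmin can help to activate. MMP1 was at -3.96 with empty vector, -4.04 with the non-target shRNA, -4.04 after PARN, -4.34 after CNOT6, -4.41 after CNOT6L, -5.22 after CNOT7 and -5.26 after NOC silencing. The controls differed by far less in MMP1 than in PLAU, and the CNOT7 and NOC shRNA arrays stood below the other 5. CNOT6L shRNA, the other array of their slide row, came next above them at -4.41, close to CNOT6 shRNA of row 1 at -4.34. The part of slide row in the MMP1 levels was not tested.

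The median change of the list against the mean of the controls was -0.07 log2 after PARN, 0.15 after CNOT6, 0.03 after CNOT6L, -0.02 after CNOT7 and -0.03 after NOC silencing. Over all named genes it was -0.02, 0.03, -0.00, -0.03 and -0.03 log2 in the same order. Between the controls 11 of 57 genes (19.3%) were 2-fold apart, near the 18.1% of all probes, and all 11 were higher on the empty-vector array. This direction was not particular to the list, since 6767 of the 7046 probes apart between the controls were also higher there.

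Among the proteases and zymogens, PLG, the substrate of urokinase, was at -5.79 with empty vector, -5.94 with the non-target shRNA, -6.14 after PARN, -5.36 after CNOT6, -6.17 after CNOT6L, -6.41 after CNOT7 and -6.32 after NOC silencing. F11, coagulation factor XI, ranged over 1.51 log2, from -5.92 on the non-target array to -4.40 for CNOT6 shRNA. Among the receptors and cofactors, the largest ranges were those of HRG, histidine-rich glycoprotein, which binds plasminogen (2.27 log2), and CPB1, a carboxypeptidase (1.86 log2). PRSS8, the membrane protease prostasin, ranged over 1.69 log2. HRG and F11, like PLAU, were lowest on the non-target array, whereas CPB1 and PRSS8 were lowest on the NOC shRNA array.

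Regulators of urokinase mRNA and of the PLAU gene were counted in the same way. Of 25 such genes, 0 were called on any shRNA array, where 0.7% to 1.91% of all probes were called, so this count does not stand apart. Between the controls 0 of 25 were 2-fold apart, beside 18.1% of all probes. That share includes dim probes, whereas 24 of the 25 were above background on all arrays. Among all probes above background on all arrays, 3844 of 33742 were 2-fold apart, a smaller share. The list's median change was 0.02, 0.07, -0.22, -0.22 and -0.21 log2 for PARN, CNOT6, CNOT6L, CNOT7 and NOC shRNA, lower for the arrays of slide row 2 than the medians of all named genes above. The AU-rich element binding proteins KHSRP and ELAVL1 ranged over 0.45 and 0.21 log2.

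The largest ranges among these regulators were those of ZFP36L2, which promotes decay of AU-rich mRNAs (1.35 log2), and of the transcription factor genes FOS (1.18 log2), FOSL1, JUNB (0.90 log2) and NFKB1 (0.87 log2). FOSL1, a subunit of AP-1, was at -3.26 with empty vector, -3.81 with the non-target shRNA, -3.10 after PARN, -3.33 after CNOT6, -4.14 after CNOT6L, -4.04 after CNOT7 and -3.81 after NOC silencing. It was highest on the 3 arrays with high PLAU. ZFP36L2 was at 1.67, 1.21, 1.79, 1.71, 0.44, 0.51 and 0.76 in the same order of arrays, and it too was highest on those 3. FOS was at 1.49, 1.44, 1.38, 1.80, 1.01, 0.98 and 0.62, with the non-target array among the higher ones. FOSL2 was also highest on the 3 arrays with high PLAU, with -2.82 for CNOT6 shRNA against -2.91 on the non-target array. Other AP-1 genes were not. JUNB (-1.12) and JUND (-0.75) were highest on the non-target array, and JUN (1.34) was lowest after PARN silencing. How many of all genes were highest on the 3 arrays with high PLAU was not counted, and no test links these levels with that of PLAU.

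The cell line label was checked against 11 squamous epithelial markers, of which 7 were above background on all arrays. EPCAM was at 4.92 to 5.21 and SOX2 at 4.58 to 5.45 on the 7 arrays. The basal markers were weak, with KRT5 above background on 4 arrays, TP63 on 2, KRT14 on 1 and DSG3 on 0. Of the 22 markers of all cell types tested, KRT6A was the 1 called (4.55%), higher for CNOT6L shRNA, where 1.09% of all probes were called. The summed level of the 7 markers lay between 5.79 and 6.35 log2.

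Of the 11 markers of other cell types above background on all arrays, 5 were highest on the 3 arrays with high PLAU (PECAM1, KDR, CD14, CD68 and CSF1R), and the other 6 were not. For KDR the margin was small, with -5.84 for CNOT6 shRNA against -5.88 for CNOT7 shRNA. So it was for CD14, with 3.79 for PARN shRNA against 3.75 for CNOT6L shRNA. The share of all genes with this order was not counted, so 5 of 11 cannot be set against it. PECAM1, an endothelial adhesion molecule, was at -3.21, -5.90, -3.23, -3.44, -5.06, -4.83 and -4.97 on the empty-vector, non-target, PARN, CNOT6, CNOT6L, CNOT7 and NOC arrays. CD68, a macrophage marker, was at -2.27, -4.04, -2.15, -2.83, -3.51, -3.43 and -3.22. PTPRC, a marker of all white blood cells, was at -3.06, -3.53, -3.55, -3.16, -2.84, -3.59 and -3.71, highest on the CNOT6L shRNA array, where PLAU was low. All 4 endothelial markers and all 4 monocyte and macrophage markers were above background on all arrays, as were 3 of 6 fibroblast markers, with COL3A1 and LUM on none.

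The summed endothelial level was -2.18 to -2.03 log2 on the arrays with high PLAU and -2.97 to -2.57 log2 on the others. The summed monocyte and macrophage level was 2.94 log2 on the non-target array and 3.74 to 3.88 log2 on the other 6, and the fibroblast sum ranged from -2.62 to -2.30 log2. Nearly all of the monocyte and macrophage sum was CD14, at 2.91 log2 on the non-target array and 3.72 to 3.85 log2 on the other 6. CD68, CSF1R and PTPRC were at -2.15 log2 or lower on every array. CD14 (0.94 log2) and CSF1R (1.05 log2) had the next largest ranges. Without PECAM1 the endothelial sums overlapped, at -3.13 to -2.71 log2 on the arrays with high PLAU and -3.17 to -2.86 log2 on the others. On the PARN shRNA array VWF (-4.80) and CDH5 (-4.04) were below their levels on the CNOT6L, CNOT7 and NOC shRNA arrays. Every array was of the same cell line, in which no other cell types are expected, so these markers are not a count of such cells. The part of other cells in the PLAU levels was not tested, and in bulk RNA fewer cells of a type and less RNA per cell cannot be told apart.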

How the data were processed

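Total RNA was labelled with Cy3 and hybridised to single-colour Agilent arrays. Per the file headers, the deposited scanner files of Feature Extraction 10.7.3.1 hold the intensity of 62976 spots as a processed signal, background-corrected by the software. The authors' series table, used as an alternative, holds log2 values centred per probe, with column medians of -0.02 to 0.09. Its differences between arrays equalled those of the scanner files within 0.02 log2 for 100% of 33742 probes, apart from 1 shift per array.

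Main values were log2 processed signals minus each array's 75th percentile. Control and outlier spots were left out, no member spot was saturated, and spots of 1 probe were averaged. A probe with 50% or more of its spots marked well above background was taken as above background. For calls, a side below background was raised to the lowest value above background on its array where it lay under it, and probes above background on no compared array were not tested. Groups came from the sample titles. Untransfected cells were not analysed here. Symbols came from a RefSeq table (assembly GRCh38.p14, names only, as the array design names another build), and the CNOT6 probe was named through the labels' accession. Each gene was represented by its brightest probe.

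Limma 3.58.1 in R 4.3.3 (lmFit, eBayes with trend; two-sided) was run on probes above background on at least 2 arrays, with a threshold of 0.05. Both the call rule and limma were tested on simulated data with 200 changed probes. The simulated arrays had independent probes, no array-wide shift and less spread than the controls here. The simulation checks the code and does not show how either rule performs on these arrays. Python 3.11.15 was used for the rest. P-values measure the spread between these arrays only.

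The members, gene lists and tests were chosen with earlier results of these data known. The text names all members, targeted genes, for each list the genes called and up to 5 with the largest range among those above background on all arrays, and the 3 genes most similar to each member. PLG, KHSRP, ELAVL1, FOSL2, JUN, JUND and the other markers given by value were added after their values were seen. Alternatives covered scaling, background correction, source table, outlier spots, dim probes, a 4-fold threshold, each control alone, slide row and leaving out arrays. The comparison with SERPINE2 was added after seeing the data.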

Additional observations from a re-analysis of the deposited data

How the results depend on the processing

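Of 275 alternative counts and values, 246 were taken as the same, 10 became calls (2-fold from each control used), and 19 moved further. Counts were compared by their ratio. A value was the same if it kept its call and moved by no more than the SD between the controls. For PLAU this limit was wide, at 1.11 log2 for the main probe and 0.98 log2 for the dim one. A move from 0.81 to -0.20 log2 for CNOT6 shRNA thus passed as the same. Some comparisons could not differ at all. Keeping only probes above background on all arrays left these member values as they were. A 4-fold threshold could add no call where the 2-fold rule gave none. The tally is therefore not a measure of robustness. No member was called for any shRNA with the main settings, so there was no called value that could change sign. Some uncalled values did change sign. The choice of control decided the calls. Against the non-target array alone, 2 member probes (both PLAU) were called for PARN shRNA and 2 for CNOT6 shRNA, beside 8.21% and 13.8% of all probes, with the main PLAU probe at 1.60 and 1.59 log2. Against the empty-vector array alone, 2 were called for each of CNOT6L, CNOT7 and NOC shRNA, beside 10.6%, 12.5% and 13.5% of all probes, with that probe at -1.21, -1.20 and -1.20 log2. The 2 PLAU probes apart between the controls became 1 under quantile normalization, 1 under normexp and 0 at 4-fold, while the count over all probes went from 7046 to 3525, 1119 and 1287. Without scaling, the main PLAU probe went from 0.81 to -0.20 log2 for CNOT6 shRNA and from -0.41 to 0.13 log2 for CNOT7 shRNA, and the dim one from 0.50 to -0.51 log2 for CNOT6 shRNA. Also without scaling, PLAUR moved to -0.22 (PARN), -1.14 (CNOT6), 0.045 (CNOT6L), 0.47 (CNOT7) and 0.060 log2 (NOC), and SERPINE2 to -1.25 (CNOT6), 0.43 (CNOT6L) and 0.74 log2 (CNOT7), against the control mean. PLAUR for CNOT6 shRNA was -0.34 log2 under quantile normalization and 0.22 log2 under normexp. The cause was not tested. Relative to SERPINE2 the main PLAU probe for CNOT6 shRNA was 1.05 log2 from the control mean but under 2-fold from the empty-vector array, and no PLAU call changed. Limma called 0 member probes with each array left out in turn (lowest 0, highest 0), and over its 14 settings the adjusted p was 0.635 to 1 for the main PLAU probe, 0.835 to 1 for the dim one, 0.846 to 1 for PLAUR and 0.743 to 1 for SERPINE2. No paired analysis was possible because every array is replicate 1, so the groups share fewer than 2 numbers. Signal over background limits PLAT and SERPINB2, and the dim PLAU probe rests on 1 spot.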
